A study of Homo sapiens with 3 samples.

Results

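The genes described here are 48 genes of DNA replication and S phase in the established line KYSE150, a human squamous cell carcinoma of the esophagus, chosen by name among the 18132 genes that the arrays measured with probe sets of a single gene. They are the factors that license origins, the replicative helicase, the primase and polymerases, the clamp and its loader, the single-strand binding protein, the enzymes of nucleotide supply and 4 regulators of S phase entry and chromatin. All 48 were measured, by 123 probe sets, and each gene is represented by the brightest of its probe sets on average over the arrays. The cells had been transfected with LOXL2 Δe13, a splice form of the secreted amine oxidase lysyl oxidase like 2, with wild-type LOXL2, or with an empty vector, and the control shared the line and the transfection. Each of these 3 groups was measured on 1 array. Whether the transfection was stable, how many clones were used and which promoter drove LOXL2 are not given in the sources used here.

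Before S phase, the origin recognition complex, CDC6 and CDT1 load the MCM helicase ring onto DNA, which licenses each origin to fire. Cyclin E and its kinase then help to activate the ring together with CDC45 and the GINS complex, primase and polymerase alpha lay down primers, and polymerases delta and epsilon extend them while held to DNA by the PCNA clamp. Many of these genes are known targets of the E2F transcription factors, and in proliferating carcinoma cells their summed expression is widely read as a sign of cycling.

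Signals are log2 values, and a difference is the log2 signal of one array minus that of another. A single array per group allows no test and no error between cultures, so higher and lower refer to these 3 arrays. The repeat measurement at hand was how far the probe sets for one gene differed, whose standard deviation over all named genes was 0.13 for Δe13 against the control, 0.16 for wild type against the control and 0.13 between the LOXL2 arrays. Among the replication genes it was 0.077, 0.11 and 0.085 in that order, from 27 genes with several probe sets above the floor, and it does not cover the spread between cultures. The floor of expression was the median of all values, 5.94. The array medians were between 5.93 and 5.95. LOXL2 probe set 11718833_a_at read 10.77 in the Δe13 array, 10.22 in the wild-type array and 5.06 in the empty vector array. Its other 3 probe sets did not all follow: 11718834_at was higher in both by 2.56 and 2.69, 11751288_a_at differed by -0.052 for Δe13 and 6.59 for wild type, and 11718832_a_at by -0.076 and -0.48. All 5 measured squamous markers (KRT5, KRT14, SFN, DSG3 and PKP1) lay above the floor in each array, against 1 of 7 fibroblast markers (PDGFRB) and 1 of 6 leukocyte markers (CD68). Of 4 endothelial markers, PECAM1 alone lay above it, in the Δe13 array.

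The replication genes as a group stayed within small differences of the control. In the Δe13 array 37 of 48 were lower than in the empty vector array, beside 51.5% of the 10878 named genes compared, and their median difference was -0.092 against -0.0061 for all genes. A size of 0.32 (log2) was used to count members, while 2 standard deviations between probe sets of a gene came to 0.26, 0.33 and 0.27 in the order above, so for wild type this size lay just inside that spread. By it 1 member was higher, CDC6, and 0 were lower, where 3.39% of all genes were that much higher and 2.97% that much lower. In the wild-type array 28 of 48 were lower, beside 49.9% of 10881 genes, with a median of -0.018 against 0 for all genes. Here 4 members (8.33%) were higher by at least 0.32 and 2 (4.17%) lower by as much, beside 10.7% and 7.13% of all genes. Both shares of members were thus no larger than the background. CDC6 and CCNE2 were at least 1.5-fold higher in the wild-type array (4.17% of members beside 2.02% of all genes), and 0 members were 1.5-fold lower there, beside 0.919%. In the Δe13 array 0 members were 1.5-fold from the control, where 0.359% of all genes were that much higher and 0.303% lower. A smaller share of cells in S phase and less RNA per cell cannot be told apart in such bulk arrays.

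Set side by side, the 3 arrays took different places. The empty vector array was the highest of the 3 for 27 members, the wild-type array for 18 and the Δe13 array for 3 (ORC1, PRIM1 and CCNE1). Over the 10703 named genes with a mean above the floor these places were taken by 39.4%, 41.3% and 19.3%, beside 56.2%, 37.5% and 6.25% of the members. The Δe13 array was the lowest for 24 of 48, where it was the lowest for 25.6% of those genes. Both LOXL2 comparisons use the same empty vector array, so a high reading in that array lowers members in both. The GC-rich background probe sets of the arrays, which carry 17 to 25 G or C bases and match no transcript, had medians of -0.063 for Δe13 and -0.23 for wild type against the control, while the GC-poor ones differed by 0.0029 and 0.017. The ratio of 3′ to 5′ signal on the ACTB control was 1.38 (log2) for Δe13, 1.46 for wild type and 1.26 for the empty vector, and on the GAPDH control it was -0.033, 0.0029 and -0.0058. The part of these background and RNA readings in the members' differences was not tested.

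**Figure D1:**
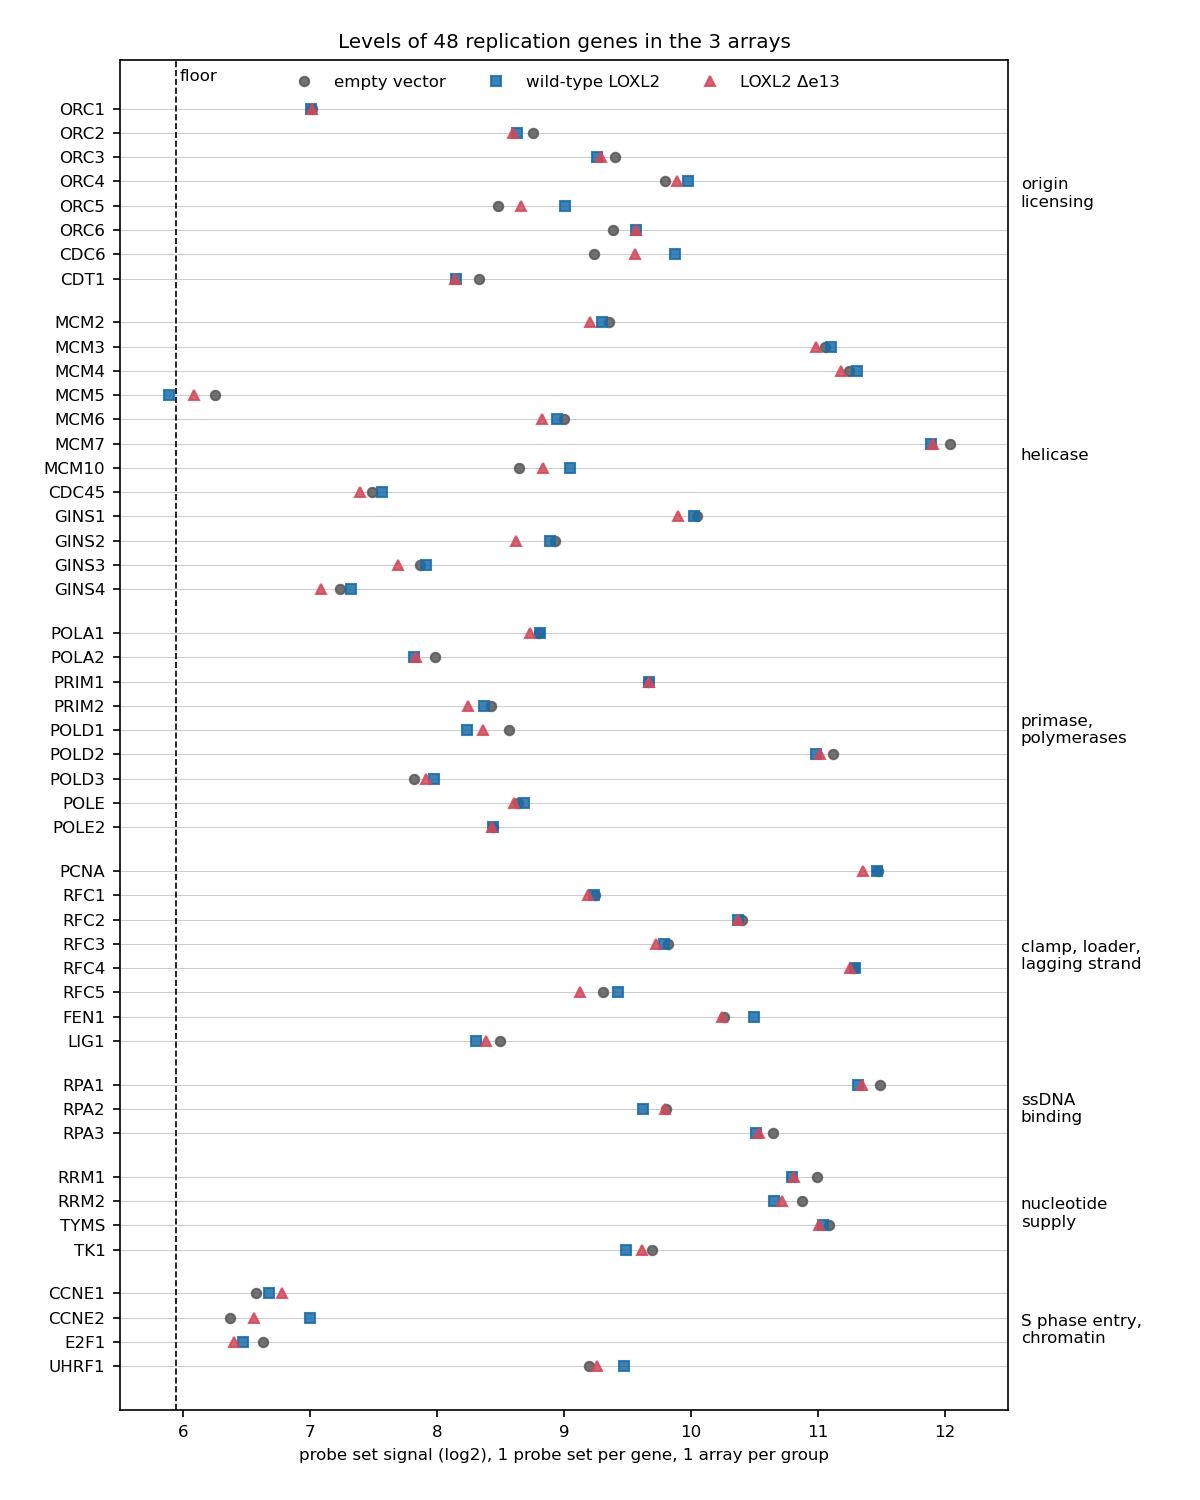
Log2 signal (horizontal axis) of the probe set standing for each of the 48 replication genes, grouped by role, in the empty vector (grey circles), wild-type LOXL2 (blue squares) and LOXL2 Δe13 (red triangles) arrays, with 1 array per group and the floor of 5.94 as a dashed line. The 3 marks of a gene lie close together, with the widest gaps for CDC6, CCNE2 and ORC5, and MCM5 lies at the floor. Signals of different genes come from different probes and are not compared with each other.

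Promoters of members far from the control, other than CCNE2 and MCM5, are shown because these genes went different ways and many replication genes share E2F sites. They run from 250 bases before to 50 bases after the annotated start, 5′ to 3′ on the gene's strand, from RefSeq on GRCh38.p14. Capitals mark E2F words (TTTCCCGC, TTTCGCGC, TTTGCCGC or TTTGGCGC) and CCAAT boxes, on either strand. GINS2 was added after its value was seen, as the lowest member in the Δe13 array.
CDC6, chr17:40287629-40287928, plus strand: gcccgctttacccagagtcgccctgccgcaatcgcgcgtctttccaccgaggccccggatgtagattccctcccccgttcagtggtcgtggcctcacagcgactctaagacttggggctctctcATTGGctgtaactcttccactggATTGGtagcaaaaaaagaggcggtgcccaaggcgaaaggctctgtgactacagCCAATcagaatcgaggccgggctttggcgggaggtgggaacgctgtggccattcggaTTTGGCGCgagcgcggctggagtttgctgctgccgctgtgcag
ORC5, chr7:104207964-104208263, minus strand: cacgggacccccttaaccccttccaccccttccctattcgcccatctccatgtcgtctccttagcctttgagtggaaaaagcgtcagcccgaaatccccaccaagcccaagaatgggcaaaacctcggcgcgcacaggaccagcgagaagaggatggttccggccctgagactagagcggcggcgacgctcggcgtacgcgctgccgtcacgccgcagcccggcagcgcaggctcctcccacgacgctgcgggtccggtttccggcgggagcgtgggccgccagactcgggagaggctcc
MCM10, chr10:13161308-13161607, plus strand: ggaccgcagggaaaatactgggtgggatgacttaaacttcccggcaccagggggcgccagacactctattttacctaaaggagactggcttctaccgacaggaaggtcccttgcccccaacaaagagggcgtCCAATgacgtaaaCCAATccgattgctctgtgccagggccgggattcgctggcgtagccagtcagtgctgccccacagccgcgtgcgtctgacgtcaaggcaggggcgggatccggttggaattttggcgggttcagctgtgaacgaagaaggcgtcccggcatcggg
POLD1, chr19:50384073-50384372, plus strand, the upstream one of the starts listed for it: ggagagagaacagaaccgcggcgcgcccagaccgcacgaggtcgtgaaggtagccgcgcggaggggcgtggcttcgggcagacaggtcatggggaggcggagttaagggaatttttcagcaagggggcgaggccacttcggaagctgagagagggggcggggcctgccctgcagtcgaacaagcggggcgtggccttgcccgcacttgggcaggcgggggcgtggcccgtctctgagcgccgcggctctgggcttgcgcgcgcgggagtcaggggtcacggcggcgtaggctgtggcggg
GINS2, chr16:85688905-85689204, minus strand: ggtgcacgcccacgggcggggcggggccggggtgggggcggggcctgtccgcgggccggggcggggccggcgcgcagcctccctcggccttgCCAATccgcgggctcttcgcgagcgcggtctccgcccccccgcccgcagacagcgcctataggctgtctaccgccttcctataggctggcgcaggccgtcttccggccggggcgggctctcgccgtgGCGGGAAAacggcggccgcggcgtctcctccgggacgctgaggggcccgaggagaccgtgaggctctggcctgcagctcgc
The CDC6 promoter held 1 E2F word and 3 CCAAT boxes, that of GINS2 1 of each, and that of MCM10 2 CCAAT boxes, while the ORC5 and POLD1 windows held neither. Only the exact words were searched, so close variants of them, as in the CDC6 and MCM10 windows, are left unmarked.

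Origin licensing genes went both ways, with the loader CDC6 and some subunits of the origin recognition complex higher and others lower. CDC6, the ATPase that loads the MCM ring, read 9.24 in the empty vector array, 9.56 with Δe13 and 9.87 with wild-type LOXL2 on probe set 11743065_at. The wild-type array was the highest and the control the lowest, with differences of 0.33 for Δe13 and 0.64 (1.56-fold) for wild type, which placed it at rank 153 from the top of 10881 genes. Its other probe set, 11743064_at, read 8.49, 8.50 and 8.53 in the same order, so the probe sets of CDC6 did not give the same difference.

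ORC5, the ATPase subunit 5 of the origin recognition complex, read 8.48 in the empty vector array, 8.66 with Δe13 and 9.01 with wild-type LOXL2. The order was that of CDC6, with differences of 0.18 and 0.53 (1.44-fold), and its 3 probe sets lay between 0.53 and 0.66 for wild type and between 0.18 and 0.28 for Δe13. ORC4 was higher on 3 of 3 probe sets as well, by 0.094 and 0.18, and so was ORC6, by 0.18 in both arrays on its single probe set.

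Other licensing genes lay on the opposite side. CDT1, the partner of CDC6 that brings the MCM ring to the origin, read 8.33 in the empty vector array against 8.14 with Δe13 and 8.15 with wild-type LOXL2. Both LOXL2 arrays were lower, by -0.19 and -0.18, and its 3 probe sets were all lower, down to -0.43 for Δe13 and -0.36 for wild type. ORC3 was lower on every probe set above the floor (6 of 6) in both comparisons, by -0.11 and -0.14 on the one that stands for it. ORC2 differed by -0.16 and -0.13, and ORC1 by 0.0040 and -0.0087. From the lowest to the highest, the 6 ORC subunits spanned 0.34 for Δe13 and 0.66 for wild type.

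**Figure D2:**
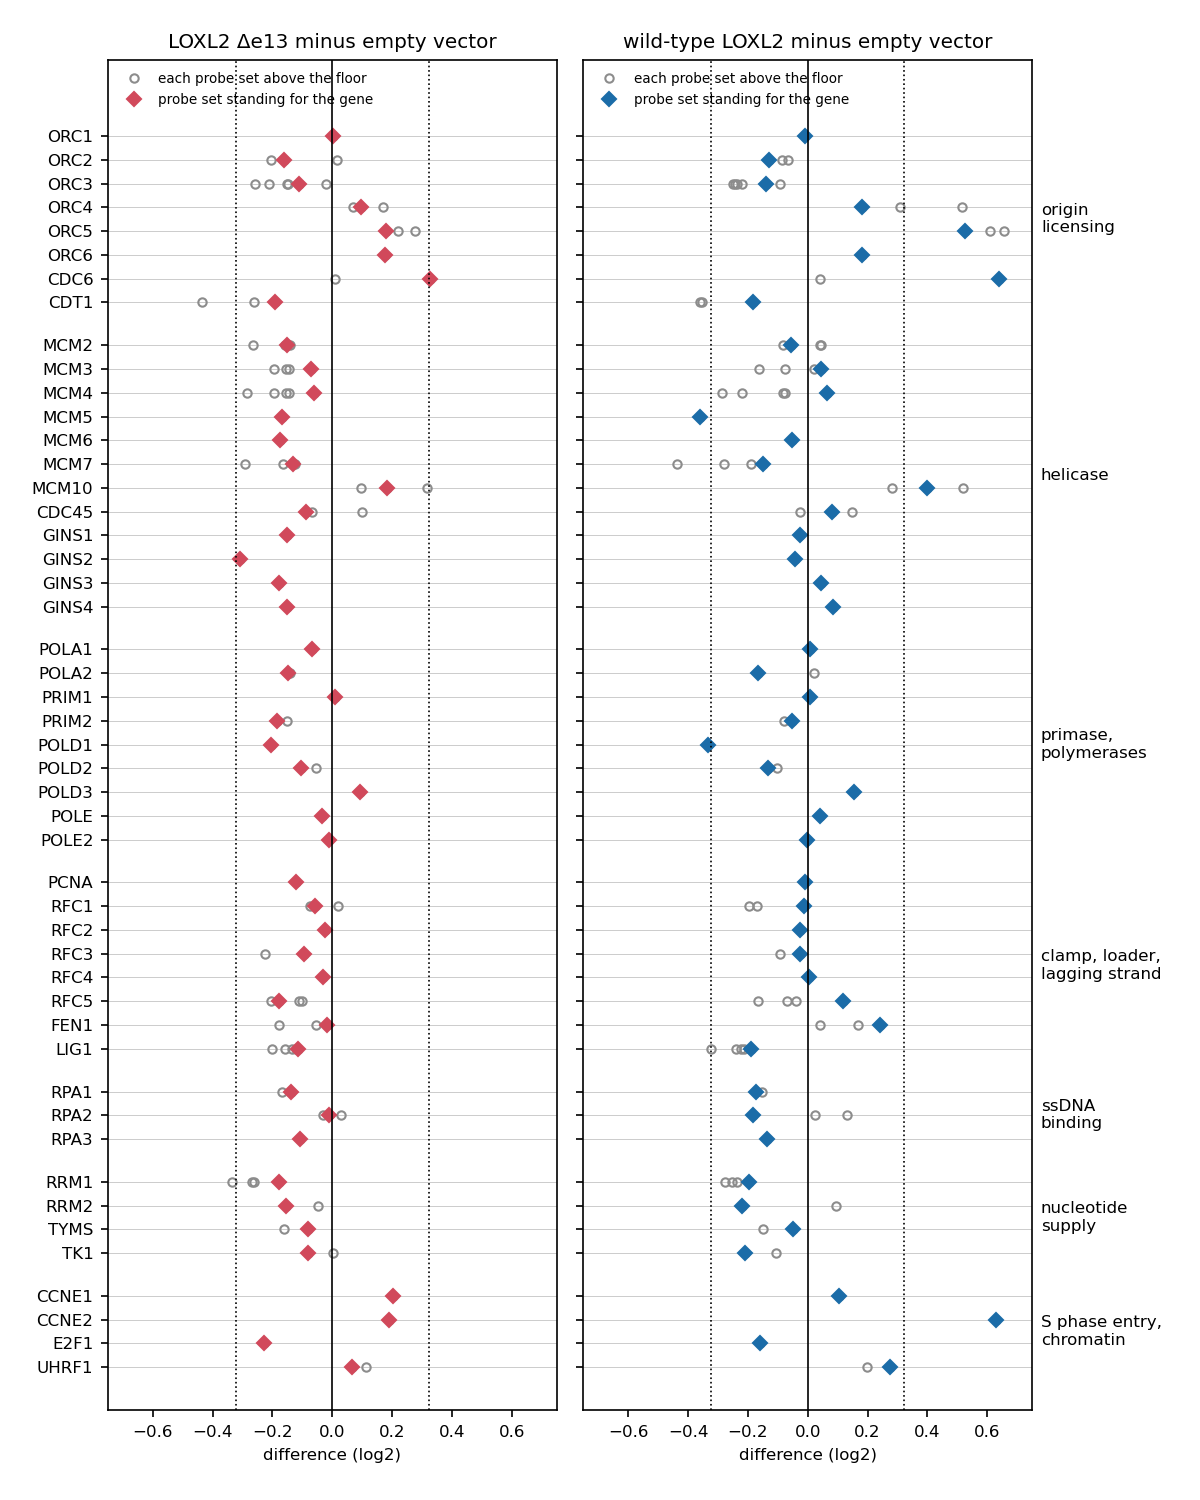
Log2 difference from the empty vector array (horizontal axis) for the LOXL2 Δe13 array (left, red) and the wild-type LOXL2 array (right, blue), with the probe set standing for each gene as a diamond, every probe set above the floor as an open circle, and dotted lines at 0.32 on either side of 0. ORC5, CDC6, MCM10 and CCNE2 lie right of the dotted line in the wild-type panel and MCM5 and POLD1 left of it, and the circles of CDC6 show 1 probe set near 0. Most diamonds of the Δe13 panel lie just left of 0.

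The replicative helicase genes were lower in the Δe13 array in 11 of 12 cases, with a median of -0.15, and spread around the control in the wild-type array, with 6 lower and 6 higher and a median of 0.0088. Of all named genes 51.5% were lower for Δe13 and 49.9% for wild type. The ring subunits MCM2 to MCM7 were all lower in the Δe13 array, between -0.17 for MCM6 and -0.061 for MCM4. In the wild-type array 4 of these 6 were lower, and MCM4 (0.065) and MCM3 (0.045) were higher on the probe set that stands for them, while 2 of the 3 other probe sets of MCM3 and all 4 others of MCM4 were lower. MCM7 was lower on 4 of 4 probe sets in both arrays, by -0.13 and -0.15, with the lowest at -0.29 and -0.44.

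MCM5, a subunit at the gate through which the ring opens, was the member with the lowest difference in the wild-type array. It read 6.25 in the empty vector array, 6.08 with Δe13 and 5.89 with wild-type LOXL2, a difference of -0.36 from the control. Its wild-type signal lay below the floor, it had 1 probe set, and it was the 1 member not above the floor in every array.

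MCM10, which helps the assembled helicase to start unwinding, went the other way from the ring. It read 8.65 in the empty vector array, 8.83 with Δe13 and 9.05 with wild-type LOXL2. Both LOXL2 arrays were higher, by 0.18 and 0.40 (1.32-fold), on 3 of 3 probe sets that lay between 0.10 and 0.32 for Δe13 and between 0.28 and 0.52 for wild type. Its rank in the wild-type comparison was 734 from the top of 10881 genes.

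The GINS complex, which joins CDC45 and the MCM ring in the active helicase, was lower with Δe13 and close to the control with wild type. GINS2 read 8.93 in the empty vector array, 8.62 with Δe13 and 8.89 with wild-type LOXL2. The Δe13 array stood alone below the others, at -0.31, which was rank 367 from the bottom of 10878 genes, on the single probe set of the gene. GINS1, GINS3 and GINS4 lay between -0.18 and -0.15 for Δe13, and all 4 lay between -0.043 and 0.086 for wild type. CDC45 differed by -0.089 and 0.080, with probe sets on both sides of 0 in each comparison.

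Primase and polymerase genes were lower in 7 of 9 cases in the Δe13 array (median -0.069) and in 5 of 9 in the wild-type array (median -0.0017), beside 51.5% and 49.9% of all named genes. POLD1, the catalytic subunit of lagging-strand polymerase delta, read 8.57 in the empty vector array, 8.36 with Δe13 and 8.23 with wild-type LOXL2. Both LOXL2 arrays were lower, by -0.21 and -0.33 (1.26-fold), on 1 probe set. POLD3, an accessory subunit of the same enzyme, read 7.82, 7.91 and 7.98 in that order and was the highest of the group, by 0.093 and 0.16. POLD2 was lower on 2 of 2 probe sets, by -0.11 and -0.13.

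The leading-strand polymerase genes POLE and POLE2 differed by at most 0.041 in size from the control. Of the primase and polymerase alpha genes, PRIM2 differed by -0.18 and -0.054, POLA2 by -0.15 and -0.17, POLA1 by -0.069 and 0.0067, and PRIM1 by 0.010 and 0.0079. PRIM1 was read at 9.66 to 9.67 in every array.

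Genes of the PCNA clamp, its loader and lagging-strand processing were lower in 8 of 8 cases in the Δe13 array, with a median of -0.077, and in 5 of 8 in the wild-type array, with a median of -0.011. Of all named genes 51.5% and 49.9% were lower. For Δe13, 5 of the 8 lay within 0.1 of 0, beside 50.1% of all named genes. PCNA, the sliding clamp, read 11.48 in the empty vector array, 11.35 with Δe13 and 11.46 with wild-type LOXL2, so the Δe13 array was the lowest, at -0.12. RFC5, a small subunit of the clamp loader, read 9.31, 9.13 and 9.42 in the same order, with the Δe13 array below and the wild-type array above the control. The probe sets of RFC5 were all lower for Δe13 (4 of 4) but gave -0.17 to 0.12 for wild type. RFC1, RFC2, RFC3 and RFC4 differed by -0.094 to -0.026 for Δe13 and by -0.027 to 0.0029 for wild type on the probe sets that stand for them. The other probe sets of RFC1 gave 0.020 and -0.074 for Δe13 and -0.20 and -0.17 for wild type. The other RFC3 probe set above the floor gave -0.22 for Δe13 and -0.091 for wild type.

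FEN1 and LIG1, which trim and seal Okazaki fragments, differed in opposite directions in the wild-type array. FEN1, the flap endonuclease, read 10.26 in the empty vector array, 10.24 with Δe13 and 10.50 with wild-type LOXL2. The wild-type array was the highest, at 0.24, with its 3 probe sets between 0.040 and 0.24. LIG1, the replicative DNA ligase, read 8.50, 8.38 and 8.31 in that order, and all 5 of its probe sets above the floor were lower in both LOXL2 arrays, between -0.20 and -0.11 for Δe13 and between -0.32 and -0.19 for wild type.

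The 3 subunits of RPA, which coats single-stranded DNA, were lower in both LOXL2 arrays on the probe sets that stand for them. Among all named genes 51.5% were lower for Δe13 and 49.9% for wild type. RPA1 read 11.49 in the empty vector array, 11.35 with Δe13 and 11.32 with wild-type LOXL2, lower by -0.14 and -0.17 with 2 of 2 probe sets in that direction. RPA3 differed by -0.11 and -0.14. RPA2 read 9.81, 9.79 and 9.62, a difference of -0.012 for Δe13 and -0.18 for wild type, but its other 2 probe sets lay above the control in the wild-type array, up to 0.13, so its direction there depends on the probe set.

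Nucleotide supply was lower in both arrays for all 4 genes, beside 51.5% and 49.9% of all named genes, with medians of -0.12 for Δe13 and -0.20 for wild type. RRM1, the large subunit of ribonucleotide reductase, read 10.99 in the empty vector array, 10.81 with Δe13 and 10.80 with wild-type LOXL2. Both LOXL2 arrays were lower on 4 of 4 probe sets, between -0.33 and -0.18 for Δe13 and between -0.28 and -0.20 for wild type. RRM2, the small subunit whose level limits the enzyme, read 10.88, 10.72 and 10.65, lower by -0.16 and -0.22, while its other probe set gave -0.048 and 0.093.

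TYMS, thymidylate synthase, read 11.09 in the empty vector array, 11.01 with Δe13 and 11.04 with wild-type LOXL2, with 2 of 2 probe sets lower in each. TK1, the thymidine kinase of the salvage path, read 9.69, 9.61 and 9.49, with the wild-type array the lowest at -0.21. The medians of the 4 genes were -0.12 for Δe13, -0.20 for wild type and 0.041 for Δe13 minus wild type. In that order the medians were -0.11, -0.17 and 0.035 for the RPA genes and -0.15, 0.0088 and -0.13 for the helicase genes. The GC-rich background probe sets had medians of -0.063, -0.23 and 0.16, and their part in these differences was not tested.

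The genes of S phase entry and chromatin were the other group whose median lay above the control in both arrays. CCNE2, one of the cyclins that drive entry into S phase, read 6.37 in the empty vector array and 6.56 with Δe13. The wild-type array was the highest, 0.63 above the control (1.55-fold) and at rank 163 from the top of 10881 genes, and the Δe13 array stood at 0.19. Its other probe set lay below the floor, so the value rests on 1 probe set, from a control signal near the floor. CCNE1, the other E cyclin, read 6.57, 6.78 and 6.68 in the same order, with the Δe13 array the highest at 0.20.

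E2F1, the transcription factor that activates many of these genes, read 6.63 in the empty vector array, 6.40 with Δe13 and 6.47 with wild-type LOXL2. It was lower in both, by -0.23 and -0.16, on its single probe set, with signals near the floor. UHRF1, which brings the maintenance DNA methyltransferase to new DNA, read 9.20, 9.26 and 9.47 in that order and was higher in the wild-type array by 0.28, with 2 of 2 probe sets above the floor higher in each comparison.

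The direct comparison of Δe13 with wild type, which uses the same arrays again, placed 32 of 48 members lower in the Δe13 array, beside 54.5% of 10847 named genes, with a median of -0.055 against -0.015 for all genes. Lower by at least 0.32 were 2 members (4.17%), beside 2.79% of all genes, and 0 were that much higher, beside 2.06%. At 1.5-fold 0 members were apart, beside 0.184% of all genes higher and 0.12% lower. The 2 members were CCNE2, at -0.44 (1.36-fold), and ORC5, at -0.34 (1.27-fold), both of which were above the control in each LOXL2 array. CDC6 followed at -0.31 and RFC5 at -0.29. GINS2, GINS3 and GINS4 differed by -0.26, -0.22 and -0.24. MCM5 (0.19), RPA2 (0.17), POLD1 (0.13) and TK1 (0.13) were the members furthest above wild type, although the other 2 probe sets of RPA2 lay below it, at -0.10 and -0.057. The GC-rich background readings had a median of 0.16 in this comparison, and their part in these differences was not tested.

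**Figure D3:**
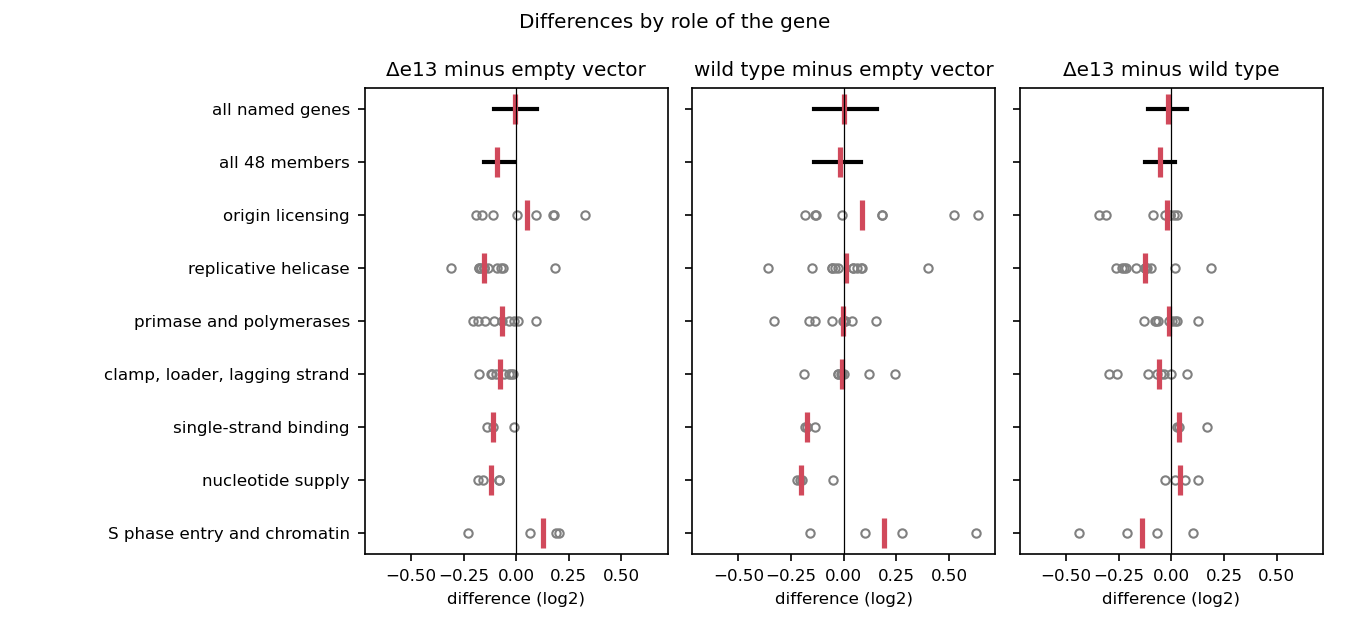
Log2 differences (horizontal axis) in the 3 comparisons, with 1 open circle per member in each role, the median of each set as a red bar, and for all named genes above the floor and all 48 members the range between the quartiles as a black line. The medians of the helicase, polymerase, clamp, single-strand binding and nucleotide groups lie below 0 in the Δe13 panel, and those of origin licensing and S phase entry above 0 in both comparisons with the empty vector.

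A wider list of 74 other replication genes, covering origin firing, fork protection, polymerase partners, nucleotide metabolism and E2F factors, was compared in the same way. Above the floor were 71 of them for Δe13, of which 41 were lower, with a median of -0.039, with 0 higher and 2 (2.82%) lower by at least 0.32. All genes stood at 51.5% lower, 3.39% that much higher and 2.97% that much lower. For wild type 72 were above it, with 33 lower, a median of 0.030, and 6 (8.33%) on either side by at least 0.32, beside 49.9% lower, 10.7% that much higher and 7.13% that much lower among all genes.

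On that list CDC25A, the phosphatase that activates the cyclin E kinase, read 7.60 in the empty vector array, 7.89 with Δe13 and 8.26 with wild-type LOXL2. It followed the order of CDC6, ORC5, MCM10 and CCNE2, at 0.29 and 0.66, with 3 of 3 probe sets higher. CTPS1, a CTP synthase, was higher by 0.27 and 0.50, although its probe sets ranged down to 0.028 for wild type and -0.082 for Δe13.

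The cytidine deaminase CDA was lower by -0.33 and -0.49 on 2 of 2 probe sets. ATAD5, which unloads PCNA, was lower by -0.38 and -0.33 on 1 probe set. E2F3, an activating E2F factor, was higher by 0.17 and 0.42 where E2F1 was lower. Its probe sets ranged down to 0.099 for Δe13 and 0.073 for wild type, and the E2F1 value rests on 1 probe set near the floor. E2F2 differed by 0.061 and -0.13.

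Promoter sequence was not used to choose the genes, but many of them are known E2F targets. The choice is therefore not independent of E2F words. RefSeq promoters were matched for 41 of the 48 members, and CCNE2, GINS4, MCM4, MCM5, POLD3, RPA2 and RPA3 were not analysed for it. Of these 41 genes 20 (48.8%) held at least 1 of the E2F words named above in a promoter, where 3.99% of the 27305 genes of the table did, and 39.6% of their 53 promoters did, against 3.32% of 35116 promoters of the same 300 bases. Of the other replication genes 29.5% of 61 held one. A CCAAT box (CCAAT on either strand) was held by 61.0% of the members, 52.5% of the other replication genes and 39.7% of all genes. A GC box (GGGCGG on either strand) was held by 75.6%, 85.2% and 48.3% in that order, so the other replication genes held it more often than the members.

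By role, an E2F word was held by 7 of 9 helicase genes, 4 of 8 primase and polymerase genes, 3 of 8 licensing genes, 3 of 8 clamp and lagging-strand genes and 1 of 4 nucleotide genes. In the groups left, 2 of 3 genes of S phase entry and chromatin and 0 of 1 single-strand binding gene held one. The first bases of the 28 matches lay from -187 to 8 relative to the start site, with a median at -34, and words on opposite strands overlapped in MCM2 and MCM6. Of the 20 members with a word, 18 were lower in the Δe13 array, with a median of -0.12. Of the 21 without one 14 were lower, with a median of -0.059, beside 37 of all 48 members and 51.5% of all named genes. In the wild-type array 14 of the 20 and 11 of the 21 were lower, beside 49.9% of all named genes. The medians there were -0.035 and -0.0087. Since 7 of the 20 are helicase genes, the word overlaps with the role, and neither was tested. CDC6 and UHRF1 were the 2 members with an E2F word above the control in the Δe13 array. A match describes letters in a window and does not show binding, and a promoter without an exact word may hold a close variant.

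**Figure D4:**
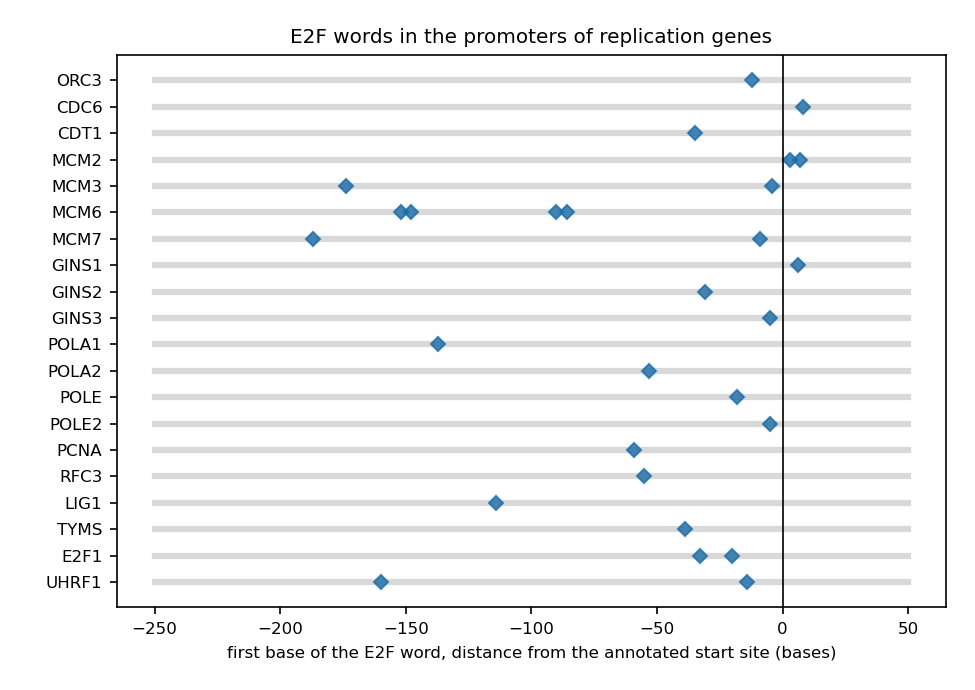
First base of each E2F word (diamonds) by its distance in bases from the annotated start site (horizontal axis) in the promoters of the 20 replication genes that held one, with the searched window as a grey line. Promoters of 1 gene with several start sites share a line, and most of the 28 matches lie within 100 bases of the start.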

How the data were processed

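Labelled KYSE150 RNA was hybridised to PrimeView arrays, 1 per group. The authors deposited log2 signals per probe set, for which the submitters' processing notes name RMA without a version. RMA corrects background and normalizes between arrays, so a shift shared by most genes would not show, and background compresses folds of dim genes.

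The members, the lists and the size of 0.32 (log2) used for counting were chosen with earlier results of these data known. Probe sets were named by the platform annotation with symbols updated by Entrez ID in RefSeq (GRCh38.p14, used for names). A gene was its probe set with the highest mean, and it was compared where either array reached the floor, the median of non-control values. Genes were counted at 0.32 (log2). For 14 members the probe set bears an _s_ or _x_ suffix, by the maker's naming one that may also detect other genes. Values are given for members at least that far apart, for the highest and lowest of each role against the empty vector, and for up to 4 other replication genes per comparison; other members are given by range or difference. Of the lists, KRT6A, TP63 and some other genes were not analysed here. The counting was tested on simulated data with planted shifts larger than most differences described here, so that test does not cover differences of their size. Alternatives were the median over probe sets, no floor, a 75th percentile floor, centring, quantile normalization, loess (span 0.3), other folds and, chosen after seeing the data, probe sets without those suffixes. Calculations used Python 3.11.15, numpy 2.4.6, pandas 2.3.3, statsmodels 0.14.6 and matplotlib 3.10.9.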

Additional observations from a re-analysis of the deposited data

How the results depend on the processing

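No paired analysis was possible because each group had 1 array. The count of members lower than the empty vector kept within 1.5 times its value under every alternative run, which is a wide margin. For wild type it was 24 of 48 with centring, beside 46.6% of all genes, and 30 of 48 with loess, beside 50.9%. With the median over probe sets, which held 41 members, it was 28 for Δe13 and 26 for wild type. For Δe13 minus the empty vector, the 1 member higher by at least 0.32 (log2) became 0 with the median over probe sets, centring, quantile normalization, 1.5-fold and 2-fold, and 1 member was lower at 1.2-fold. For wild type minus the empty vector, the 4 higher became 2 at 1.5-fold and 0 at 2-fold, and the 2 lower became 1 with the 75th percentile floor or centring and 0 at 1.5-fold and 2-fold; the median became -0.064 with the median over probe sets and -0.043 with quantile normalization. For Δe13 minus wild type, the 2 lower became 1 with the median over probe sets, the 75th percentile floor, quantile normalization or loess, 5 at 1.2-fold, and 0 at 1.5-fold and 2-fold; the median became -0.079 with centring, -0.028 with quantile normalization and -0.026 with loess. The stricter folds and floor lower counts by construction. For Δe13 minus wild type, the median of all genes moved from -0.015 to -0.039 with centring, 0.0047 with quantile normalization and 0.0034 with loess. The members' median minus that of all genes was -0.040, and became -0.040, -0.033 and -0.029 in that order. For wild type minus the empty vector it went from -0.018 to -0.064 with the median over probe sets and -0.028 with quantile normalization. It became -0.051 with the 75th percentile floor. With no floor it changed sign to 0.011, where the median of all genes was -0.029. For settings other than the stricter folds and floor the cause was not tested. With the median over probe sets CDC6 differed by 0.17 for Δe13, 0.34 for wild type and -0.17 for Δe13 minus wild type, and MCM10 by 0.32 for Δe13. Members kept their side of 0 under all alternatives that held them in 42 of 48 cases for Δe13, 36 for wild type and 31 for Δe13 minus wild type. The floor settings leave a member's value unchanged, and for the 13 members with 1 probe set the probe set settings do too. Much of this count was therefore fixed in advance, and the same count was not made over all named genes. Medians counted as moved when they shifted by more than the standard deviation between probe sets divided by the square root of the number of members. The number of arrays limits the precision, and signals near the floor, as of MCM5, CCNE2 and E2F1, hold much background.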

Other observations

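Probe sets of the same member did not always point the same way. Of 27 members with several probe sets above the floor, 17 were lower and 5 higher on all of them for Δe13. For wild type 13 were lower and 6 higher on all of them. The same counts were not made over all named genes, so they describe the members only. At the level of probe sets, 80 of 104 above the floor were lower for Δe13 (76.9%, beside 51.6% of all named probe sets) and 66 of 104 for wild type (63.5%, beside 49.6%). CDC45, MCM2, MCM3, MCM4, POLA2, RFC5, RPA2 and RRM2 had probe sets on both sides of 0 in the wild-type array, and CDC45, ORC2, RFC1, RPA2 and TK1 in the Δe13 array.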
